A study of Homo sapiens with 18 samples.

Results

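The genes described here were 9 members of the plasminogen system and the matrix metalloproteinase (MMP) family, out of 18475 genes listed for the series. They comprise the plasminogen activators PLAU and PLAT, the receptor PLAUR, the proteases MMP1, MMP2, MMP3 and MMP10, and the inhibitors TIMP1 and TIMP2. The members were chosen by symbol, as secreted proteases and inhibitors linked to the secretome of senescent cells. PLAUR is in the list as the cell surface anchor of PLAU.

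BEAS-2B is an immortalised, non-malignant human bronchial epithelial cell line, H446 is a small cell lung cancer line and A549 is a lung adenocarcinoma line. All are labelled wild type and were compared as 3 unirradiated control libraries and 3 libraries taken 24 h after 10 Gy of X-rays, which gives 18 RNA-seq libraries in 6 groups. The comparisons ask whether lung epithelial cells and lung cancer cells respond differently to radiation. There is 1 line of each kind, so a difference between these lines cannot be told apart from one between malignant and non-malignant cells, and the labels do not say whether libraries of a group came from separate cultures. The p-values therefore measure the spread between these libraries, which may be technical. Levels are given as FPKM, fragment values scaled by transcript length and by the mapped reads of each library, so levels of different genes can be compared. Summed values ranged from 461255 to 529936 FPKM per library, and the number of reads per library is not given in the sources used here.

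Several library facts bear on the results. The library labelled BEAS-2B 10 Gy replicate 2 stood apart. CDKN1A, which encodes the cell cycle inhibitor p21, was at 309.73, 102.24 and 487.79 FPKM in irradiated replicates 1, 2 and 3 of BEAS-2B, against 79.93 to 86.36 FPKM in its controls. MDM2 showed the same order, at 47.49, 16.17 and 87.83 FPKM after 17.46 to 18.86 FPKM in controls. Results that rest on this library are therefore given with and without it. In A549, CDKN1A was 1.54 higher on the log2 scale after irradiation (SE 0.04, limma adjusted p = 8.33e-11), whereas in H446 it was 0.13 lower than in controls (log2 difference -0.13, adjusted p = 0.0642). Of 6 epithelial markers, EPCAM stayed at or below 3.06 FPKM and KRT5 at or below 0.03 FPKM in all libraries. CDH1 was at 6.74 to 11.34 FPKM in A549 and at or below 0.74 FPKM in the other lines. KRT17 was at 159.3 FPKM or more in BEAS-2B and H446 and at or below 0.18 FPKM in A549. The keratins KRT8 and KRT18 were high in all lines, at 341.89 FPKM or more. By contrast, 3 neuroendocrine markers (CHGA, DLL3 and SYP) summed to 0.23 to 0.66 FPKM in H446, a small cell line, and 4 alveolar markers (NKX2-1, NAPSA, SFTPB and SFTPC) summed to 0.79 to 1.28 FPKM in A549. Of 5 leukocyte markers, 1 (CD68) averaged at least 1 FPKM in any group, and PTPRC stayed at or below 0.09 FPKM. Of 6 fibroblast markers, 2 to 4 averaged at least 1 FPKM in each group. COL1A1 was at 4.08 to 10.09 FPKM in all libraries, LUM reached 20.4 FPKM and DCN 4.36 FPKM in H446, and PDGFRB reached 14.41 FPKM in BEAS-2B, while COL1A2 stayed at or below 0.66 FPKM. The summed fibroblast list was 23.68 to 26.01 FPKM in H446 controls and 29.07 to 29.69 FPKM after irradiation, mostly through LUM (mean 16.1 and then 20.1 FPKM), and its part in the results was not tested.

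Plasminogen is a circulating zymogen that PLAU (urokinase, uPA) and PLAT (tissue-type activator, tPA) cleave to plasmin, a broad protease that degrades fibrin and can activate pro-MMPs. PLAUR (uPAR) concentrates PLAU at the cell surface, and serpins such as SERPINB2 (PAI-2) inhibit the activators. MMP1 is a collagenase, MMP2 a gelatinase, and MMP3 and MMP10 are stromelysins. TIMP1 and TIMP2 bind MMPs and block them, although TIMP2 also takes part in pro-MMP2 activation at the cell surface together with MMP14. In lung, this network is known for matrix turnover, fibrinolysis and repair.

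On GRCh38 with the GENCODE 29 annotation, PLAU covers chr10:73909177-73917497 on the plus strand, and PLAUR covers chr19:43646095-43670547 on the minus strand. MMP2 is at chr16:55389700-55506691 (plus), TIMP1 at chrX:47582313-47586789 (plus) and TIMP2 at chr17:78852977-78925387 (minus). MMP10 (chr11:102770503-102780628), MMP1 (chr11:102789920-102798160) and MMP3 (chr11:102835801-102843803) lie side by side on the minus strand in a cluster of 9 MMP genes that runs from 102520508 to 102955734. C10orf55, which lies antisense to PLAU and shares 916 exonic bases with it, was at 0.03 to 0.78 FPKM. CEP295NL shares 198 exonic bases with TIMP2 on the same strand and was at 0.06 to 0.56 FPKM. Whether counting used the strand is not given in the sources used here, so reads of such overlaps cannot be assigned.

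Promoter windows of 250 bases before the start were found for 4 members in RefSeq (GRCh38.p14). Those of PLAU and PLAUR are shown as those of a ligand and its receptor, whose levels ran in different orders across the lines. AP-1, the FOS and JUN dimer, binds the motif TGAGTCA, and the GC box GGGCGG is bound by SP1. Both motifs were searched on both strands. The PLAUR window holds 1 AP-1 match, in capitals, whose first base lies at -186 from the start. The window of the downstream start of PLAU holds 3 GC boxes, at -66, -51 and -40, left in lower case, and no AP-1 match. The PLAUR window holds no GC box. Of 35116 promoter windows of this length, 4.20% hold the AP-1 motif and 42.6% the GC box. TIMP1 has 2 GC boxes (-135 and -45) and MMP10 has neither motif.
PLAUR (chr19:43670170-43670419, minus strand): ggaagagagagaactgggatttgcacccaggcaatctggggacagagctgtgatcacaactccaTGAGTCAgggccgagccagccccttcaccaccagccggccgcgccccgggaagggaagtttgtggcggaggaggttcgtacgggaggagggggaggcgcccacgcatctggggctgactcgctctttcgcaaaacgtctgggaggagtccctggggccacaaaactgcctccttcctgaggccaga
PLAU (chr10:73910882-73911131, plus strand): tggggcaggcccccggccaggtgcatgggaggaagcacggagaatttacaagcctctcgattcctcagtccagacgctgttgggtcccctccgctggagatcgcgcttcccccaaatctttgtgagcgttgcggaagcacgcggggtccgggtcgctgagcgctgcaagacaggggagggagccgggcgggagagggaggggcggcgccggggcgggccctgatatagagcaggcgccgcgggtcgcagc

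**Figure D1:**
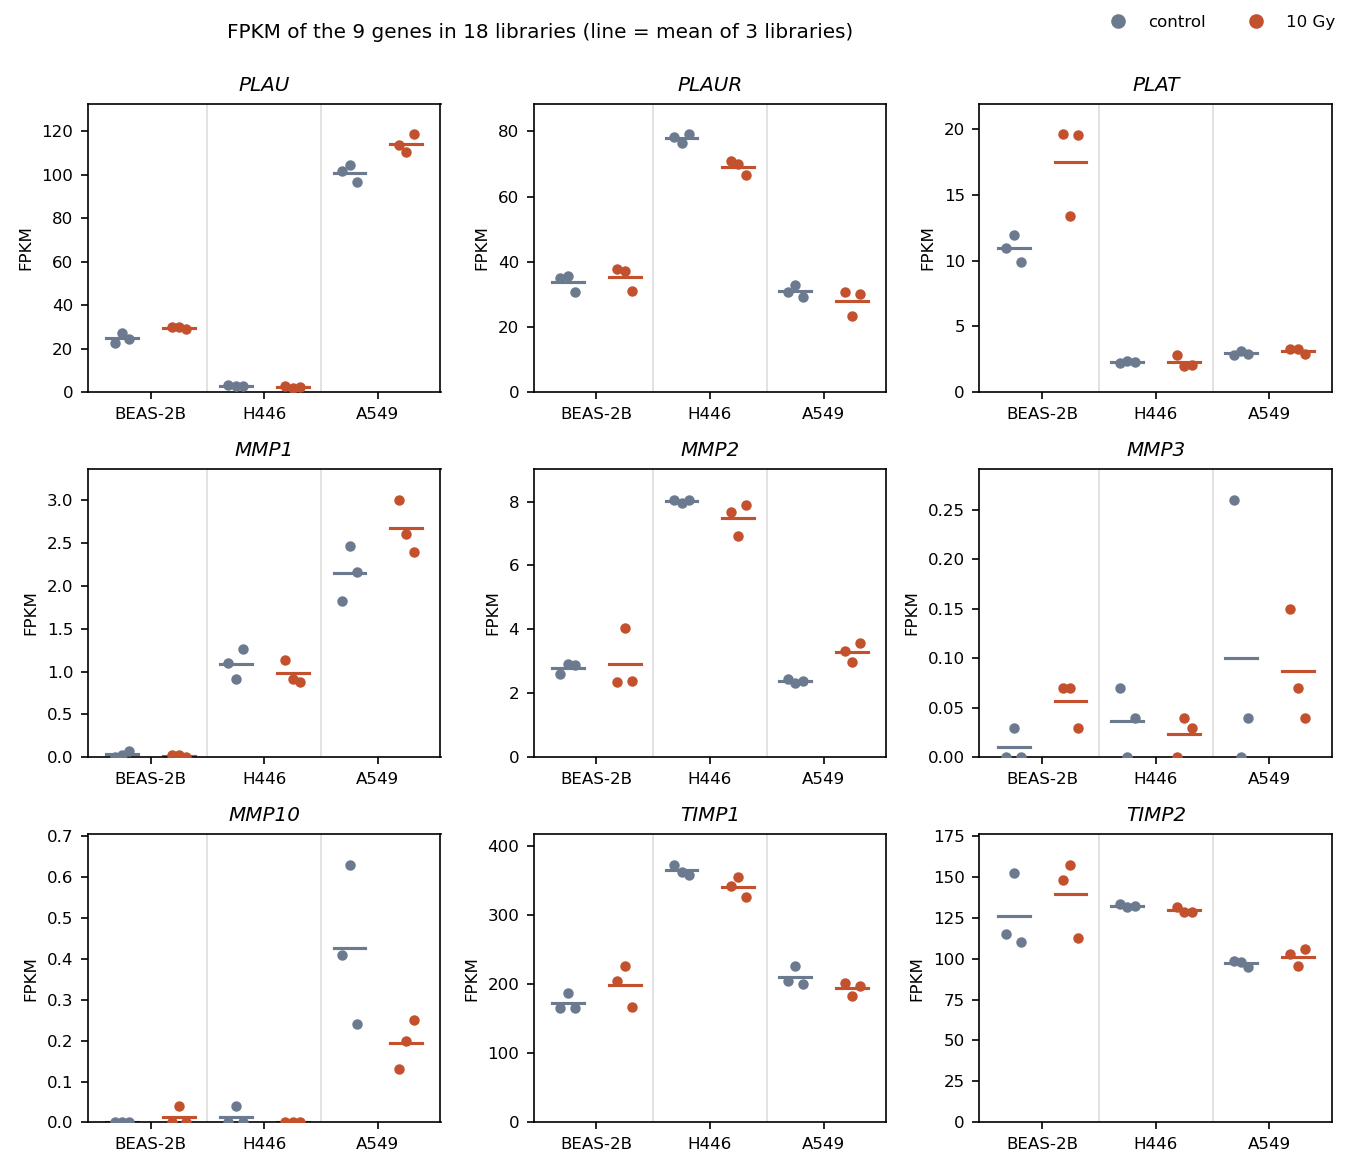
FPKM of the 9 genes (y axis, linear from 0, separate scale per gene) in the 18 libraries by line (x axis). Points are libraries in replicate order, grey for control and red for 10 Gy, and bars are means of 3. PLAU was highest in A549, PLAUR, MMP2 and TIMP1 in H446 and PLAT in BEAS-2B, while MMP3 and MMP10 stayed below 1 FPKM everywhere.

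Before irradiation the lines carried different parts of the activation system, and the widest of these differences were larger than any response to 10 Gy. PLAU averaged 100.9 ± 3.89 FPKM in A549 controls (SD, n = 3), 24.9 ± 2.24 FPKM in BEAS-2B and 2.88 ± 0.27 FPKM in H446. The mean was thus 4.06-fold higher in A549 than in BEAS-2B and 35.1-fold higher than in H446. PLAUR ran in another order. It averaged 78.0 ± 1.29 FPKM in H446, 33.8 ± 2.66 FPKM in BEAS-2B and 30.9 ± 1.93 FPKM in A549. The line with the least ligand thus had the most receptor mRNA. PLAT averaged 10.97 ± 1.03 FPKM in BEAS-2B, which was 3.72-fold above A549 and 4.79-fold above H446.

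For comparisons of the 9 control libraries in 1 limma fit on log2(FPKM + 1), 7 members were tested. Of these, 6 differed between A549 and BEAS-2B (background over all genes 85.1%), 6 between H446 and BEAS-2B (82.6%) and 7 between H446 and A549 (84.4%), so the shares were close to those of all genes. After quantile normalization TIMP2 between A549 and BEAS-2B (adjusted p = 0.0825) and PLAT between H446 and A549 (adjusted p = 0.161) no longer passed. PLAU was 1.98 higher in A549 than in BEAS-2B (SE 0.07, adjusted p = 2.53e-11). PLAUR was 1.19 higher in H446 than in BEAS-2B (SE 0.06, adjusted p = 1.12e-09), and its difference between A549 and BEAS-2B was -0.12 (adjusted p = 0.0721, with overlapping libraries). It passed without BEAS-2B control replicate 3 (-0.19, adjusted p = 0.00568) and without A549 control replicate 2 (-0.17, adjusted p = 0.0286). MMP1 entered the test through A549 and H446, the lines where it was high.

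Among the proteases and inhibitors, MMP2 was 8.02 ± 0.07 FPKM in H446 controls and lay between 2.32 and 2.91 FPKM in controls of the other lines. On the log2 scale it was 1.25 higher in H446 than in BEAS-2B (SE 0.06, adjusted p = 5.52e-10) and 0.17 lower in A549 than in BEAS-2B (log2 difference -0.17, adjusted p = 0.0192). The latter was lost without BEAS-2B control replicate 3 (-0.15, adjusted p = 0.0597), without A549 control replicate 2 (-0.15, adjusted p = 0.0576), in libraries rescaled to equal totals (-0.13, adjusted p = 0.0875) and with all 18 libraries in 1 fit (adjusted p = 0.17). TIMP1 was the most abundant member in each line, at 364.4 ± 7.37 FPKM in H446, 210.2 ± 14.1 FPKM in A549 and 172.5 ± 12.2 FPKM in BEAS-2B. TIMP2 followed in BEAS-2B and H446, with 132.4 ± 1.07 FPKM in H446 and 125.8 ± 23.0 FPKM in BEAS-2B, a pair that did not pass the test with all libraries (log2 difference 0.09, adjusted p = 0.387). Without BEAS-2B control replicate 2, the highest of them, it passed at 0.23 (adjusted p = 6.57e-05). In A549 the mean of TIMP2 (97.1 ± 2.04 FPKM) was close to that of PLAU.

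PLAU, the main activator on epithelial surfaces, was higher after 10 Gy in A549 and lay above the controls in BEAS-2B. In A549 it was 101.63, 104.38 and 96.71 FPKM in controls and 113.55, 110.24 and 118.4 FPKM after irradiation. The groups did not overlap, and PLAU rose by 0.18 on the log2 scale (SE 0.04, adjusted p = 0.00364), or 1.13-fold in mean FPKM. When all 18 libraries shared 1 fit, the adjusted p was 0.0503. In BEAS-2B, PLAU went from 22.76, 27.22 and 24.57 FPKM to 29.94, 30.11 and 28.99 FPKM. Here too all irradiated libraries lay above all controls, at 1.19-fold in the mean, but the log2 difference of 0.25 (SE 0.08) did not pass the threshold (adjusted p = 0.28). With all 18 libraries in 1 fit it passed (adjusted p = 0.0372). Without replicate 2 it was 0.24 (adjusted p = 0.301). In H446, where PLAU was scarce, the values were 3.17, 2.63 and 2.83 FPKM in controls and 2.63, 2.09 and 2.56 FPKM after irradiation, which touch at 2.63 FPKM (log2 difference -0.18, SE 0.09, adjusted p = 0.127).

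PLAT, the fibrinolytic activator, had its highest levels in irradiated BEAS-2B cells. The controls were at 11, 11.99 and 9.93 FPKM and the irradiated libraries at 19.62, 13.41 and 19.57 FPKM. All 3 irradiated libraries lay above the controls, with replicate 2 nearest to them. The log2 difference was 0.61 (SE 0.14, adjusted p = 0.241). It passed when all 18 libraries shared 1 fit (SE 0.12, adjusted p = 0.00665), where 498 genes rose and 324 fell of 11734. Without irradiated replicate 2, PLAT rose by 0.79 on the log2 scale (SE 0.09, adjusted p = 0.00148). PLAT was then the 1 member called of 6 tested, where 1.99% of all genes were called. In H446, PLAT was at 2.19, 2.4 and 2.28 FPKM in controls and at 2.86, 1.96 and 2.09 FPKM after irradiation. In A549 it was at 2.81, 3.11 and 2.94 FPKM and then at 3.27, 3.3 and 2.92 FPKM. Both pairs of groups overlapped, with an adjusted p of 0.98 for H446 and of 0.416 for A549.

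PLAUR, the receptor, fell in H446 and did not pass the test in BEAS-2B or A549. In H446 it was at 78.35, 76.57 and 79.07 FPKM in controls and 71.03, 69.87 and 66.55 FPKM after 10 Gy. All irradiated libraries lay below the controls, and PLAUR fell by 0.17 on the log2 scale (SE 0.04, adjusted p = 0.00479). The libraries also differed by base composition. In H446 each control library's deviation correlated with the GC content of genes at Spearman 0.35 to 0.46 (11380 genes) and each irradiated library's at -0.50 to -0.11, and with this trend removed the difference of PLAUR (55.7% GC) was -0.10 (adjusted p = 0.0316). The same correlations were -0.63 to 0.01 in BEAS-2B controls, 0.45, 0.70 and -0.31 in irradiated BEAS-2B replicates 1, 2 and 3, and -0.13 to 0.17 in A549. With all 18 libraries in 1 fit the adjusted p of PLAUR in H446 was 0.156. In BEAS-2B, PLAUR was at 34.92, 35.73 and 30.77 FPKM and then 37.93, 37.14 and 31.06 FPKM (adjusted p = 0.795). In A549 it was at 30.66, 32.95 and 29.11 FPKM and then 30.66, 23.44 and 30.21 FPKM (adjusted p = 0.186). The groups of both lines overlapped.

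MMP2, the gelatinase, rose in A549. It was at 2.45, 2.32 and 2.39 FPKM in controls and 3.32, 2.99 and 3.57 FPKM after irradiation. The groups did not overlap, and the rise was 1.38-fold in mean FPKM and 0.34 on the log2 scale (SE 0.08, adjusted p = 0.00244). In H446, MMP2 was at 8.05, 7.94 and 8.06 FPKM and then 7.68, 6.92 and 7.89 FPKM, all below the controls without passing the test (log2 difference -0.09, SE 0.06, adjusted p = 0.264, and -0.01 with the GC trend removed, adjusted p = 0.895). In BEAS-2B the controls were at 2.6, 2.91 and 2.9 FPKM and the irradiated libraries at 2.34, 4.03 and 2.38 FPKM. Replicate 2 was above every control there and the other irradiated libraries below them. The difference was 0.02 (SE 0.15, adjusted p = 0.971) and became -0.18 without replicate 2 (adjusted p = 0.543).

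The interstitial collagenase MMP1 was nearly silent in BEAS-2B, low in H446 and highest in A549. In A549 it was at 1.83, 2.47 and 2.16 FPKM in controls and 3.01, 2.61 and 2.4 FPKM after irradiation, with overlapping groups (log2 difference 0.22, SE 0.09, adjusted p = 0.0664). Leaving out A549 control replicate 2 took it past the threshold (0.29, adjusted p = 0.0294), as did leaving out irradiated replicate 3 (0.28, adjusted p = 0.0461) and the fit of all 18 libraries (adjusted p = 0.0347). In H446 it was at 1.1, 0.92 and 1.26 FPKM and then 1.14, 0.92 and 0.88 FPKM (adjusted p = 0.538). No BEAS-2B library exceeded 0.07 FPKM.

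MMP3 and MMP10, the stromelysins, did not reach 1 FPKM in any library and were not tested. MMP3 peaked at 0.26 FPKM, in A549 control replicate 1, and was listed at 0 in 5 of 18 libraries. Its smallest values above 0 were 0.03 and 0.04 FPKM, so the higher values rest on a few reads. MMP10 was listed at 0 in 10 of 18 libraries, and every A549 library had some. These were at 0.41, 0.63 and 0.24 FPKM in controls and 0.13, 0.2 and 0.25 FPKM after irradiation, with overlapping groups (2-sided exact permutation p = 0.2, where 0.1 is the smallest that 3 against 3 libraries can give). A response of either stromelysin was not detectable at these levels. Of the cluster's 9 genes 7 were listed, and MMP7 (matrilysin) exceeded MMP1 in A549, at 3.07 to 5.32 FPKM, while MMP8, MMP12 and MMP13 stayed at or below 0.37 FPKM in all libraries.

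TIMP1 and TIMP2, the inhibitors, passed the test in no line when each line was fitted alone with all its libraries and no further scaling. TIMP1 in BEAS-2B was at 164.89, 186.6 and 165.93 FPKM in controls and 205, 225.83 and 166.93 FPKM after irradiation (log2 difference 0.20, SE 0.11, adjusted p = 0.475). In H446 it was at 372.69, 362.07 and 358.54 FPKM and then 341.4, 354.84 and 325.36 FPKM. All irradiated libraries were lower there (-0.10, SE 0.04, adjusted p = 0.0793), and with the GC trend removed the difference of TIMP1 (57.9% GC) was -0.01 (adjusted p = 0.923). The call was gained with quantile normalization (-0.09, adjusted p = 0.0354) and without irradiated replicate 2 of H446 (-0.13, adjusted p = 0.0298). In A549, TIMP1 was at 205.02, 226.2 and 199.53 FPKM and then 201, 182.71 and 198 FPKM, with overlap (-0.12, SE 0.05, adjusted p = 0.0791), and it passed with equal totals (-0.12, adjusted p = 0.0313), with the GC trend removed (-0.11, adjusted p = 0.0462) and without control replicate 3 (-0.15, adjusted p = 0.0382).

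TIMP2 stayed near its control level in both cancer lines. In A549 it was at 98.56, 98.03 and 94.79 FPKM in controls and 102.51, 95.2 and 105.69 FPKM after irradiation (0.06, SE 0.04, adjusted p = 0.289). H446 had 133.59, 131.65 and 131.82 FPKM, then 131.53, 128.28 and 128.41 FPKM (-0.03, SE 0.03, adjusted p = 0.448). The widest spread was within BEAS-2B groups, at 115.09, 152.18 and 110.02 FPKM and then 147.75, 157.24 and 112.42 FPKM (0.15, SE 0.14, adjusted p = 0.68). In that line replicate 3 was the lowest library of both groups. Without irradiated replicate 2 the BEAS-2B differences were 0.05 for TIMP2 (adjusted p = 0.942), 0.10 for TIMP1 (adjusted p = 0.789) and 0.02 for PLAUR (adjusted p = 0.958). Leaving out each BEAS-2B library in turn gave 0.05 to 0.29 for TIMP2, 0.10 to 0.32 for TIMP1 and -0.0032 to 0.15 for PLAUR, and none passed.

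**Figure D2:**
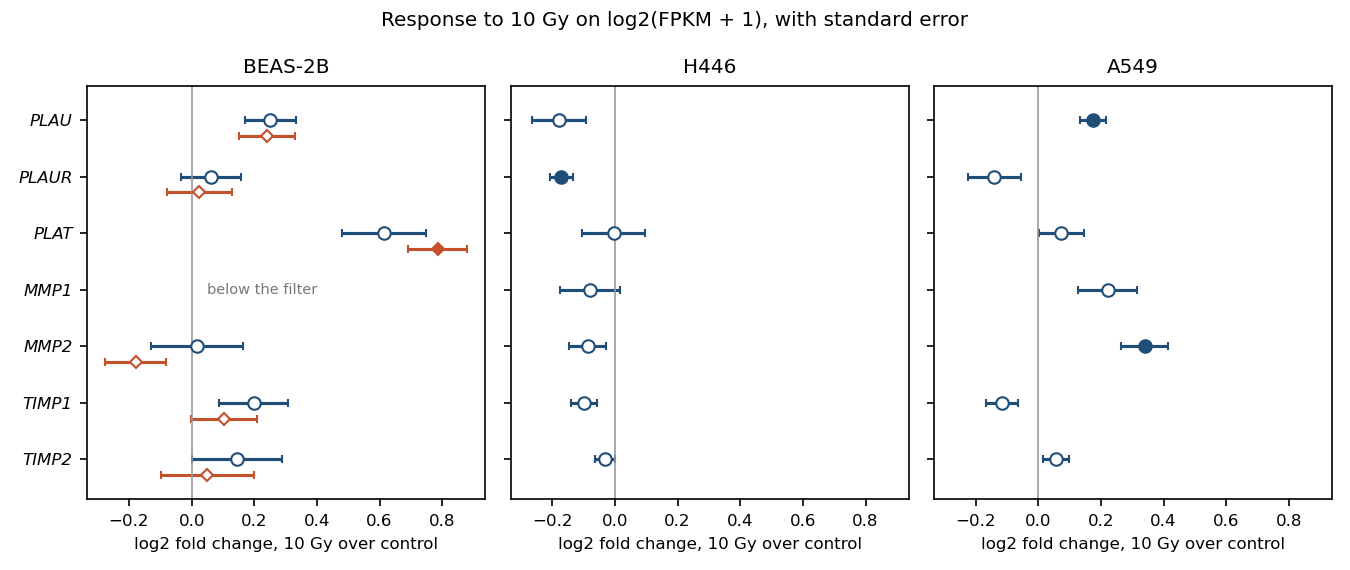
Log2 difference on log2(FPKM + 1) between 10 Gy and control (x axis, bars are SE) for the 7 members tested in at least 1 line (y axis), by line. Circles are all libraries, diamonds are BEAS-2B without irradiated replicate 2, and filled symbols passed an adjusted p of 0.05. PLAU and MMP2 passed in A549, PLAUR in H446, and PLAT in BEAS-2B when replicate 2 was left out.

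Over the members that passed the filter on low values, 0 of 6 were called in BEAS-2B (background 0%), 1 of 7 in H446 (38.4%) and 2 of 7 in A549 (51.7%). At an unadjusted p under 0.05, limma gave 2 members in BEAS-2B, PLAU and PLAT, where 12.3% of all genes reached that level. It gave 2 in H446, PLAUR and TIMP1 (48% of all genes), and 4 in A549, PLAU, MMP1, MMP2 and TIMP1 (57.5%). In H446 4 of 7 members lay wholly below the controls (background 29.9%) and 0 wholly above (20.4%). In A549 2 of 7 lay wholly above (29%) and 0 wholly below (29.5%). In BEAS-2B 2 of 6 lay wholly above (7.48%) and 0 wholly below (8.87%). The median log2 difference of the members was 0.17 for BEAS-2B, -0.09 for H446 and 0.07 for A549, beside 0.00, -0.03 and -0.00 over all genes tested. With the GC trend removed the H446 median was -0.05, beside -0.04 over all genes. The BEAS-2B median was then 0.10 (4 of 6 members above 0), beside 0.01, and the A549 median 0.07, beside -0.00. Without irradiated replicate 2 the BEAS-2B median was 0.08, beside -0.00. In both cancer lines the share of members called was below the background, but with 7 members per line this was not tested. Leaving out 1 library gave 1 to 2 members in H446 and 2 to 3 in A549. In bulk RNA, fewer cells expressing a gene and less RNA per cell cannot be told apart.

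Differences in response between lines were tested directly in 1 limma fit of 18 libraries. PLAU responded more upward in BEAS-2B than in H446, by 0.43 on the log2 scale (SE 0.10, adjusted p = 0.00622), and more upward in A549 than in H446, by 0.35 (SE 0.10, adjusted p = 0.0102). Between BEAS-2B and A549 its response differed by 0.08 (SE 0.10, adjusted p = 0.606). These comparisons share samples. Without irradiated BEAS-2B replicate 2 the first difference was 0.42 (adjusted p = 0.011). The PLAU differences were negative in H446 and positive in the other lines, and that of A549 had passed the test within its line. With all 18 libraries in 1 fit that of BEAS-2B passed instead, as given above.

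PLAT responded more in BEAS-2B than in H446, by 0.62 (SE 0.17, adjusted p = 0.0146), and more than in A549, by 0.54 (SE 0.17, adjusted p = 0.02). Without irradiated BEAS-2B replicate 2 these differences were 0.79 (adjusted p = 0.000522) and 0.71 (adjusted p = 0.000554), in fits that called 18.5% and 30% of all genes. The second comparison was lost without BEAS-2B control replicate 3 (0.48, adjusted p = 0.0529), irradiated BEAS-2B replicate 1 (0.45, adjusted p = 0.0591) or irradiated A549 replicate 3 (0.50, adjusted p = 0.0502). The first held each time 1 library was left out.

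MMP2 responded more upward in A549 than in H446, by 0.43 (SE 0.16, adjusted p = 0.0425), and this call was fragile. It was lost in 11 of 12 fits that left out 1 library of these lines, at adjusted p of up to 0.0991. These fits share 1 spread over all lines, and no BEAS-2B library was left out for this comparison. Within single lines the SE of MMP2 was 0.15 for BEAS-2B, 0.08 for A549 and 0.06 for H446. Against BEAS-2B the response of MMP2 in A549 differed by 0.32 in favour of A549 (log2 difference of BEAS-2B minus A549 -0.32, SE 0.16, adjusted p = 0.13), and without irradiated BEAS-2B replicate 2 by -0.52 (SE 0.10, adjusted p = 0.000601). With the GC trend removed this difference was -0.39 (adjusted p = 0.0399). For PLAUR no pair of lines passed with all libraries (adjusted p = 0.185 for BEAS-2B against H446, 0.243 for BEAS-2B against A549 and 0.876 for A549 against H446). Between BEAS-2B and H446 it passed without irradiated BEAS-2B replicate 3 (0.32, adjusted p = 0.043), and without irradiated replicate 2 it was 0.20 (adjusted p = 0.322). TIMP1 was 0.31 more upward in BEAS-2B than in A549 (SE 0.12, adjusted p = 0.0515) and 0.30 more than in H446 (SE 0.12, adjusted p = 0.0768). Without irradiated BEAS-2B replicate 3 both passed, at 0.44 (adjusted p = 0.00133) and 0.42 (adjusted p = 0.00237), as they did without control replicate 2 of that line (adjusted p = 0.024 and 0.0348). Without irradiated replicate 2 they were 0.22 (adjusted p = 0.131) and 0.20 (adjusted p = 0.201), and with the GC trend removed the latter was 0.14 (adjusted p = 0.353). In all, 2 of 7 members differed between BEAS-2B and H446 (background 22.7%), 1 of 7 between BEAS-2B and A549 (30.6%) and 2 of 7 between A549 and H446 (34.6%). Leaving out 1 library at a time gave 2 to 5, 0 to 2 and 1 to 2 members. The 5 included TIMP2, whose difference between BEAS-2B and H446 was 0.18 with all libraries (SE 0.15, adjusted p = 0.405). It passed without irradiated BEAS-2B replicate 3 (0.32, adjusted p = 0.0473), and without irradiated replicate 2 it was 0.08 (adjusted p = 0.734).

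Enzyme and inhibitor were also set against each other as ratios of FPKM within each library, a measure chosen after the values were seen. The ratio of MMP2 to TIMP2 in A549 was 0.0249, 0.0237 and 0.0252 in controls and 0.0324, 0.0314 and 0.0338 after irradiation. All irradiated libraries were higher (2-sided exact permutation p = 0.1, the smallest possible here), as they were for MMP2 itself. The groups overlapped in BEAS-2B (exact permutation p = 0.6) and in H446 (exact permutation p = 0.4). The ratio of the 2 inhibitors, TIMP1 to TIMP2, was 2.08, 2.31 and 2.10 in A549 controls and 1.96, 1.92 and 1.87 after irradiation, so that all irradiated libraries were lower (exact permutation p = 0.1). It overlapped between the groups in BEAS-2B (exact permutation p = 0.8) and in H446 (exact permutation p = 0.3).

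**Figure D3:**
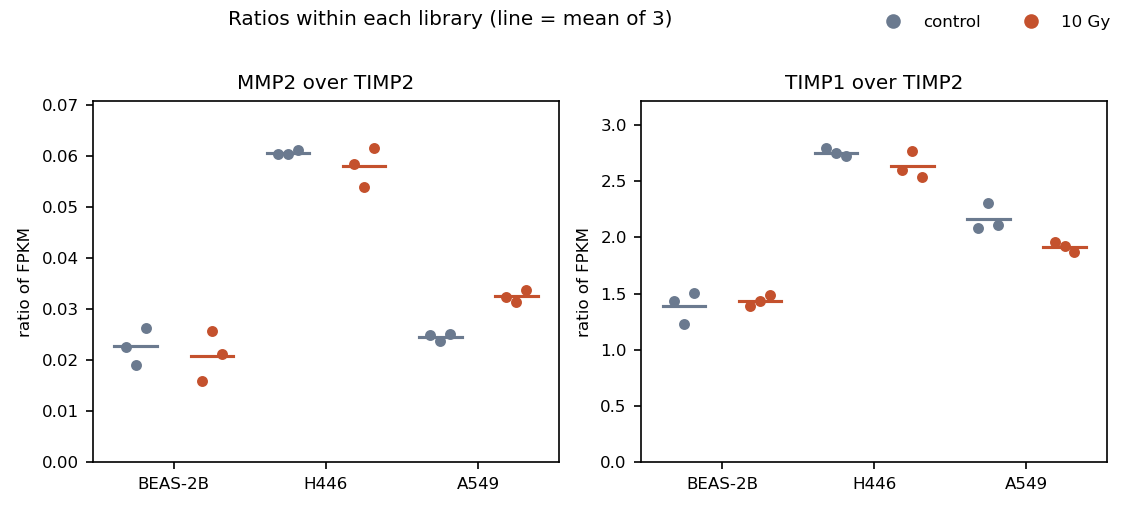
Ratios of FPKM within each library (y axes from 0) for MMP2 over TIMP2 and TIMP1 over TIMP2 by line (x axis). Points are libraries in replicate order, grey for control and red for 10 Gy, and bars are means of 3. In A549 the MMP2 ratio was higher and the TIMP1 ratio lower in all irradiated libraries, and in BEAS-2B and H446 the groups overlapped.

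In the wider plasminogen list of 20 genes, 14 were tested in A549, of which 4 rose and 2 fell. LRP1, the endocytic receptor that clears activator-inhibitor complexes, rose by 0.97 (SE 0.06, adjusted p = 9.36e-08). SERPINE2 (protease nexin-1), which inhibits PLAU and thrombin, rose by 0.72 (SE 0.04, adjusted p = 5.82e-08), from 120.79 to 125.19 FPKM in controls to 195.02 to 214.93 FPKM. The intracellular serpin SERPINB8 fell by 0.64 (SE 0.08, adjusted p = 4.97e-05). SERPINB2 (PAI-2) was 49.53 to 57.12 FPKM in A549 controls and fell by 0.18 (SE 0.06, adjusted p = 0.03). S100A10, a plasminogen binding protein, was the fourth that rose with LRP1, SERPINE2 and PLAU. In H446 1 of 12 rose, SERPINB8, and 3 fell, namely PLAUR, VTN and ENO1. In BEAS-2B 0 of 13 were called, and 1 (PLAT) rose without replicate 2, where 1.92% of all genes rose. Background shares were 25.3% higher and 26.4% lower in A549, and 14.8% and 23.6% in H446. Plasminogen itself (PLG) was at or below 0.02 FPKM in all libraries, so no line transcribed the substrate at a measurable level.

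**Figure D4:**
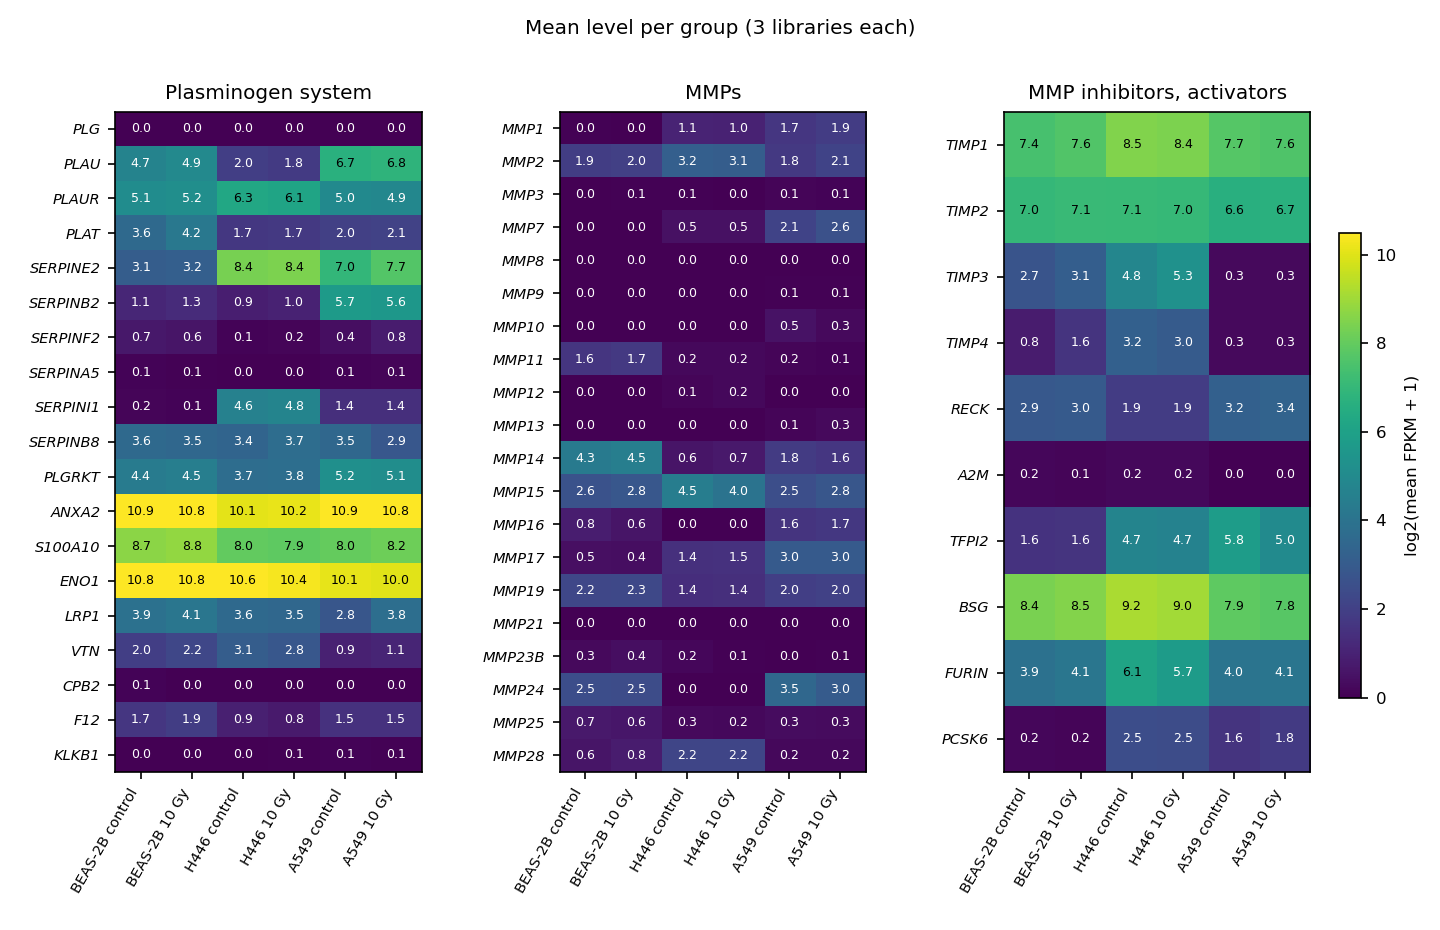
Mean level per group, as log2(mean FPKM + 1) of 3 libraries (colour and printed value), for the plasminogen system, the MMPs and the MMP inhibitors and activators (rows) in the 6 groups (columns). Most MMPs were near 0 in every line, and the plasminogen binding proteins ANXA2, S100A10 and ENO1 were high in all groups.

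Of 19 further MMPs, 16 were listed and few were expressed. In A549 2 of 7 tested rose (25.3% of all genes) and 1 fell (26.4%). MMP7 rose by 0.52 (SE 0.07, adjusted p = 6.16e-05), and the membrane-bound MMP24 fell by 0.50 (SE 0.08, adjusted p = 0.000167). The other that rose was MMP15. In H446 0 of 4 rose (14.8% of all genes) and 1 (23.6% of all genes), MMP15, fell by 0.47 (SE 0.05, adjusted p = 0.000111), and in BEAS-2B 0 of 5 were called, with or without replicate 2. MMP14, the membrane protease that activates pro-MMP2, was at 16.76 to 23 FPKM in BEAS-2B and at or below 2.6 FPKM in the cancer lines. The log2 difference of MMP14 was 0.18 for BEAS-2B (adjusted p = 0.525) and -0.17 for A549 (adjusted p = 0.11). MMP9 (gelatinase B) did not exceed 0.06 FPKM and MMP13 did not exceed 0.37 FPKM.

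Among 10 MMP inhibitors and activators, TIMP1 and TIMP2 included, TIMP3 rose in H446 from 27.22, 27.2 and 26.72 FPKM to 39.27, 38.45 and 37.73 FPKM (0.49, SE 0.04, adjusted p = 5.7e-06). It was the 1 of 9 that rose in that line (14.8% of all genes), where 3 fell (23.6%), namely FURIN, TIMP4 and BSG. TFPI2, a Kunitz inhibitor of plasmin and MMPs, fell in A549 by 0.78 (SE 0.04, adjusted p = 3.2e-08), 1 of 2 that fell there of 7 tested (26.4% of all genes), beside BSG, with 0 that rose (25.3%). In BEAS-2B 0 of 7 were called, with or without replicate 2, and TIMP3 differed by 0.37 (SE 0.12, adjusted p = 0.28).

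AP-1 and ETS proteins are known regulators of PLAU, PLAUR and MMP genes. In A549, 10 of 14 tested fell (26.4% of all genes) and 0 rose (25.3%), with a median log2 difference of -0.48, beside -0.00 over all genes. ATF3 fell by 1.06 (SE 0.05, adjusted p = 1.47e-08), FOSL1 by 1.02 (SE 0.05, adjusted p = 2.52e-08), JUNB by 0.99, ETS1 by 0.94 and JUN by 0.89. Of the 7 members tested in A549, 5 had a log2 difference above 0, of which PLAU and MMP2 passed the test. The other 2, PLAUR and TIMP1, were below 0. A link between these factors and the members was not tested. In H446 5 of 13 rose (14.8% of all genes), namely FOS, FOSL1, ATF3, ETV1 and ELK3, and 1 (23.6% of all genes), JUND, fell by 0.51 (SE 0.06, adjusted p = 0.000135). In BEAS-2B 0 of 12 were called with all libraries, and 3 (FOS, ETV4 and ATF3) rose without replicate 2 (1.92% of all genes).

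The members were also set beside 31 other secretome factors. In A549, 16 of 28 tested fell (26.4% of all genes) and 6 rose (25.3%). The cytokine IL11 fell by 1.60 (SE 0.05, adjusted p = 5.75e-10), the EGFR ligand AREG by 1.19 (SE 0.05, adjusted p = 6.98e-09), HBEGF by 1.13, IL1A by 0.95 and the chemokine CCL20 by 0.85. In H446, where 14.8% of all genes rose and 23.6% fell, 5 of 23 rose (CXCL8, CXCL1, FGF2, IGFBP4 and IL6) and 3 fell, IL1B beside GDF15 by 0.59 (SE 0.04, adjusted p = 6.13e-06) and CXCL2 by 0.55 (SE 0.14, adjusted p = 0.0118). In BEAS-2B 0 of 25 were called with all libraries and 9 rose without replicate 2 (1.92% of all genes). GDF15, among these, was itself low in replicate 2, at 3.01 FPKM beside 29.71 and 32.06 FPKM in the other irradiated libraries. Against the same shares of all genes, of 8 senescence markers 1 of 6 tested rose in A549 (CDKN1A) and 2 fell (MKI67 and HMGB2), which became 0 after quantile normalization. In H446 3 of 8 rose (CDKN2B, the proliferation marker MKI67 and the chromatin protein HMGB2) and 2 fell (LMNB1 and CDKN2A). In BEAS-2B 0 of 8 were called. CDKN1A rose without replicate 2, but that library was set apart by its low CDKN1A, so this call follows from the choice of library. LMNB1, a nuclear lamin that is lost in senescent cells, fell in H446 by 0.22 (SE 0.04, adjusted p = 0.00136) and differed by -0.13 for A549 (adjusted p = 0.0543) and -0.01 for BEAS-2B (adjusted p = 0.97).

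Genes whose pattern was most like each member's were sought among 13157 genes over the 18 libraries, which share lines, so the values are descriptions. By level, KIF3C (Pearson r = 0.998) and QPCT (0.998) were most like PLAU, and CARD10 and P2RX7 (both 0.990) most like PLAT. NQO1 (0.993) and ALDH3A1 (0.992) were most like MMP1. After the mean of each line was subtracted, RNF24 (0.905) and PLCD3 (0.901) were most like PLAU, RNF19B (0.920) and COL9A3 (0.915) most like PLAT, and COL1A1 (0.965) and EHD2 (0.950) most like TIMP2. The GC trend was not removed for these values. It was widest in BEAS-2B, where TIMP2 also varied most, and its part in the likeness was not tested.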

How the data were processed

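The authors prepared poly(A)-selected RNA libraries and deposited a single table of 18 libraries. Its values were read as FPKM as the authors computed them, and this unit was inferred from 2-decimal values whose totals differ between libraries. The submitters' processing notes name HISAT2 2.0.4, Bowtie2 2.2.5, RSEM 1.2.12 and hg38, with no role. Sequencing depth is unknown, so no counting interval is given.

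Groups came from the sample labels. Values were transformed to log2(FPKM + 1), and genes with at least 1 FPKM in at least 3 libraries of the comparison (of any one line, for differences in response) were tested with limma 3.58.1 (trend) in R 4.3.3. Benjamini-Hochberg adjusted p under 0.05 over all genes tested was the threshold, with no fold limit. Fold changes on this scale understate those of low genes.

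The members and lists were chosen with earlier results of these data known. Named genes are the members, list genes called with an absolute log2 difference of at least 0.5 (at most 5 per list and line), and PLG, SERPINB2, MMP9, MMP14, MMP13, TIMP3, CDKN1A and LMNB1. Some genes of the lists and of this rule are not reported here and were left out of the counts. Other list genes, those of BEAS-2B without replicate 2 and the ratios were chosen after their values were seen. Promoter windows come from RefSeq (PLAT, MMP1, MMP2, MMP3 and TIMP2 not used here). Alternatives were quantile normalization, equal totals, another pseudocount, other filters, no trend, GC trend removal, all libraries in 1 fit, a fold limit, a replicate block and leaving out each library.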

Additional observations from a re-analysis of the deposited data

Results flagged for a closer look

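Responses to 10 Gy that differed between lines by a direct test of the difference drew attention for 3 members. PLAU responded more upward in BEAS-2B than in H446 by 0.43 on the log2 scale, and more upward in A549 than in H446 by 0.35. PLAT responded more upward in BEAS-2B than in H446 by 0.62 and than in A549 by 0.54. MMP2 responded more upward in A549 than in H446 by 0.43, a call that most other settings did not keep. The BEAS-2B values rest in part on the irradiated replicate 2 that had low CDKN1A, and its part was measured by leaving it out, as given above. A single outlying library was not tested for, and each library was left out in turn instead.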

How the results depend on the processing

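Members called in BEAS-2B went from 0 to 1 with the replicate block (PLAT, adjusted p = 0.0011) and 2 with all 18 libraries in 1 fit (PLAT and PLAU). Over all genes the BEAS-2B calls went from 0 to 344 higher and 95 lower with the block, and to 498 and 324 with all 18 libraries. In H446 they went from 1 to 2 with quantile normalization and 0 with all 18 libraries. The difference between BEAS-2B and A549 went from 1 to 2 with equal totals, with 1 FPKM required in every library, with the GC trend removed and with the replicate block. The member gained was MMP2 with the GC trend removed and TIMP1 in the other settings. That between A549 and H446 went from 2 to 1 with quantile normalization, equal totals, a pseudocount of 0.1 or no filter on low values. MMP1 was gained there with no trend (adjusted p = 0.0477) and with the GC trend removed (adjusted p = 0.0309), and TIMP1 for BEAS-2B against H446 with the replicate block (adjusted p = 0.0405). A fold limit of 1 on the log2 scale left 0 in every comparison of radiation or response, 3 of 6 and 3 of 7 in unirradiated A549 against BEAS-2B and H446 against A549, and 6 of 6 in H446 against BEAS-2B. Leaving out 1 library gave 0 to 1 members in BEAS-2B, 1 to 2 in H446, 2 to 3 in A549, 2 to 5 for BEAS-2B against H446, 0 to 2 for BEAS-2B against A549 and 1 to 2 for A549 against H446. Where these changes are not built into the alternative, the cause was not tested. Signs turned only in differences that had not passed the test, and the lowest and highest values with 1 library left out are given where these included such a turn. For BEAS-2B, MMP2 was at -0.000639 (quantile), -0.060 (GC trend removed) and -0.18 to 0.12, and PLAUR at -0.0082 (GC) and -0.0032 to 0.15. For H446, PLAT was at 0.071 (quantile), 0.011 (equal totals) and -0.12 to 0.071, and TIMP2 at 0.013 (GC). Among differences in response, MMP2 between BEAS-2B and H446 was at -0.034 (GC) and -0.090 to 0.21, and TIMP2 between BEAS-2B and A549 at -0.0064 to 0.23. Between A549 and H446, PLAT was at -0.030 (quantile), TIMP1 at 0.0062 (quantile) and -0.054 to 0.037, and PLAUR at -0.028 (GC) and -0.035 to 0.15. TIMP2 between unirradiated H446 and BEAS-2B ranged from -1.3e-05 to 0.23. The replicate numbers did not pair the libraries. Same-number correlations of deviations were -0.13, 0.32 and 0.31 in BEAS-2B, 0.19, 0.01 and 0.08 in H446 and 0.01, -0.05 and -0.10 in A549.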
